A study of Sus scrofa with 12 samples.

Results

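Translation initiation and elongation factors were taken as the genes whose symbol on the pig array begins with EIF or EEF. The rule found 47 genes, measured by 89 array features, among the 11914 genes that could be named on the array. Of the 47 genes, 24 had more than 1 feature, and their features were averaged. The rule used names only, so no measured value chose a member. It also took in EIF2C1, EIF2C2 and EIF2C4, older symbols of AGO1, AGO2 and AGO4, which are argonaute proteins of small RNA silencing and not initiation factors. Of 35 factors picked by role for description, 24 were among the 47 genes. The other 11 (EIF1AX, EIF2S2, EIF4B, EIF4EBP1, EIF4G1, EIF5, EIF5A2, EIF6, EEF1A2, EEF1G and EEF2) were not analysed here.

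Initiation factors bring the ribosome to the start codon of an mRNA. The eIF4 proteins bind the cap and unwind the leader, eIF2 carries the initiator tRNA, eIF3 bridges the mRNA and the small ribosomal subunit, and eIF1, eIF1A, eIF5 and eIF5B choose the start codon and join the large subunit. Elongation factors then deliver aminoacyl tRNA and move the ribosome along. A fully grown oocyte makes little new RNA and matures on stored mRNA, so that its protein output is set largely by which stored messages are translated, and kinases of eIF2 and of eEF2 are known brakes on that step.

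The samples were in vitro matured oocytes of crossbred prepubertal gilts, of 2 classes that the labels call SM and LG without spelling the names out. Each class was matured for 44 h in TCM199 medium containing LH, FSH, EGF and follicular fluid at 10%, either with no addition (control) or with GDNF, glial cell line-derived neurotrophic factor, a secreted ligand of the receptor kinase RET. Each of the 4 groups (SM control, SM GDNF, LG control, LG GDNF) was measured on 3 arrays, each a pool of oocytes, and the study asked how GDNF acts in either class. The design text counts 9 independently collected replicates a condition, pooled by 3, whereas the sample labels give a number per pool of 2. The other channel of each array, whichever did not hold the sample, held the same reference, made from oocytes of every group. Within LG GDNF, pools 1 and 2 bear an extra word, Clean, that pool 3 and the other groups lack. Its meaning is not stated, and whether it bears on the LG GDNF values was not tested.

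The 12 arrays lay on 3 slides with 1 array of each group on each. Dye ran with slide: the sample carried Cy5 on slide 1 and Cy3 on slides 2 and 3. The deposited values are log ratios whose numerator and base are not stated, and whether the ratios of slides 2 and 3 were turned to match slide 1 is not known. The direction of expression is therefore not settled. Single values are given below as deposited. Differences are given as sizes, with the side of 0 named only against that of another gene. There are 3 readings of equal standing: all 12 arrays as deposited, the 8 arrays of slides 2 and 3 alone, and all 12 arrays with the ratios of slides 2 and 3 turned. Where only 1 value is given for a difference, it is that of the 12 arrays as deposited unless another reading is named. In the deposited values the correlation between arrays of opposite dye was between -0.0664 and 0.603 over the 45220 features, with a median of 0.399 over 32 pairs. Between arrays of the same dye it was between 0.15 and 0.844, with a median of 0.44 over 34 pairs. A ratio to pooled oocytes gives no level, so the oocyte label could not be checked against the level of oocyte markers, and no factor can be ranked above another in abundance. Fewer transcripts per cell and fewer cells in a pool cannot be told apart in such ratios. Arrays are named by group and pool number, and where 3 values of a group are listed they stand in the order of pools 1, 2 and 3.

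Arrays of 1 group correlated about as strongly as arrays of different groups. Over the 47 translation factors the median correlation was 0.356 for the 12 pairs within a group (0.027 to 0.707) and 0.349 for the 54 pairs between groups (-0.228 to 0.929). Over all 45220 features the medians were 0.390 and 0.430. The closest array to each of the 12 belonged to another group in every case, over the factors and over all features, where each array has 9 arrays of other groups and 2 of its own to compare with. SM control 2 and LG GDNF 2, which share neither class nor treatment, correlated at 0.929 over the 47 genes (0.844 over all features). SM GDNF 2 correlated with LG GDNF 2 at 0.892 and with SM control 2 at 0.873, and SM control 1 with LG GDNF 1 at 0.851. The first of these pairs lay on slide 2, the last on slide 1, and SM GDNF 2 lay on slide 3. Within the SM control group, by contrast, the lowest correlation over the 47 genes was 0.0268, between pools 2 and 3. These correlations are over genes, which are not independent, and the arrays share the reference. For 8 of the 12 arrays the closest array over the 47 genes had the same pool number, and for 5 it was on the same slide. Over all features these counts were 9 and 8 of 12. In each of the other groups an array has 1 array of its own pool number and 1 on its own slide. All arrays of pool 1 lie on slide 1, so the counts for pool number and slide overlap.

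**Figure D1:**
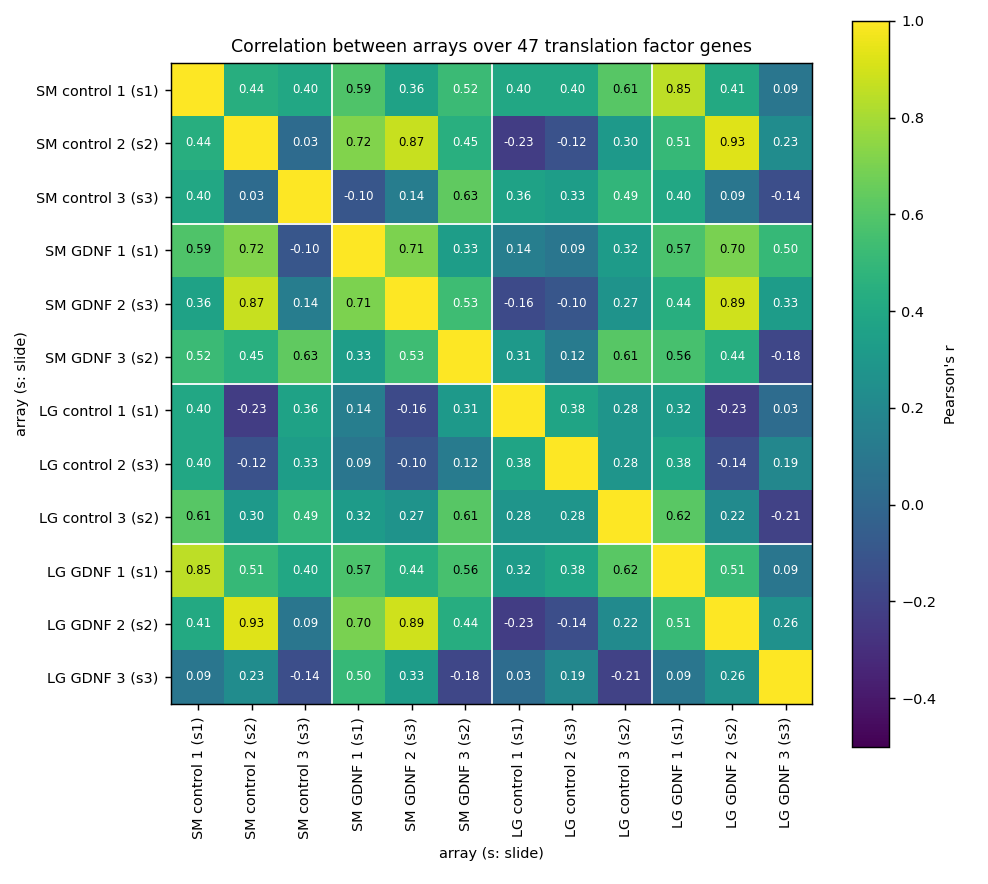
Pearson's correlation between each pair of the 12 arrays over the 47 translation factor genes, in deposited log ratios; white lines part the 4 groups, and s gives the slide. The brightest cells (0.929, 0.892, 0.873 and 0.851) lie between groups, and within LG GDNF the correlations lie between 0.0890 and 0.514.

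LG control 2 and LG GDNF 3, both on slide 3, stood apart from the others in these genes. LG control 2 was the highest or the lowest of the 12 arrays for 19 of the 47 factors (40.4%, against 24.0% of all genes), and LG GDNF 3 for 14 (29.8%, against 18.9%). SM control 2 followed with 11 factors. Over all genes LG GDNF 3 stood out less, as LG control 1 was highest or lowest for 23.8%. More than 0.5 from their slide mean lay 10 factors on LG GDNF 3 and also 10 on SM GDNF 1. On LG control 2, 9 of the 47 lay more than 1 from the mean of their slide (19.1%, against 5.04% of all genes). The same arrays stood apart in other lists. The median of 50 cytosolic ribosomal protein genes was -0.59 on LG control 2 and -1.36 on LG GDNF 3, and between -0.23 and 0.79 on the other 10 arrays. The median of 13 oocyte markers was 0.96 and 0.91 on the pair, and between -0.39 and 0.45 on the others. Medians of 15 cumulus and granulosa markers were -0.11 and -0.08 on the pair, and between -0.04 and 0.32 on the others. The part of these markers in the results below was not tested, and values without the pair stand beside the results they are given for.

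Across the 12 arrays, group accounted for 29.0% of the summed squares of the 47 factors and slide for 22.0%. Group takes 27.3% of the degrees of freedom and slide 18.2%, so neither share stood far above what its number of levels takes up. Over all genes the shares were 25.6% for group and 24.1% for slide. The spread of the factors, as the SD over 12 arrays after slide means were removed, had a median of 0.288, against 0.222 for all genes. Without LG control 2 and LG GDNF 3 the medians were 0.245 and 0.206.

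**Figure D2:**
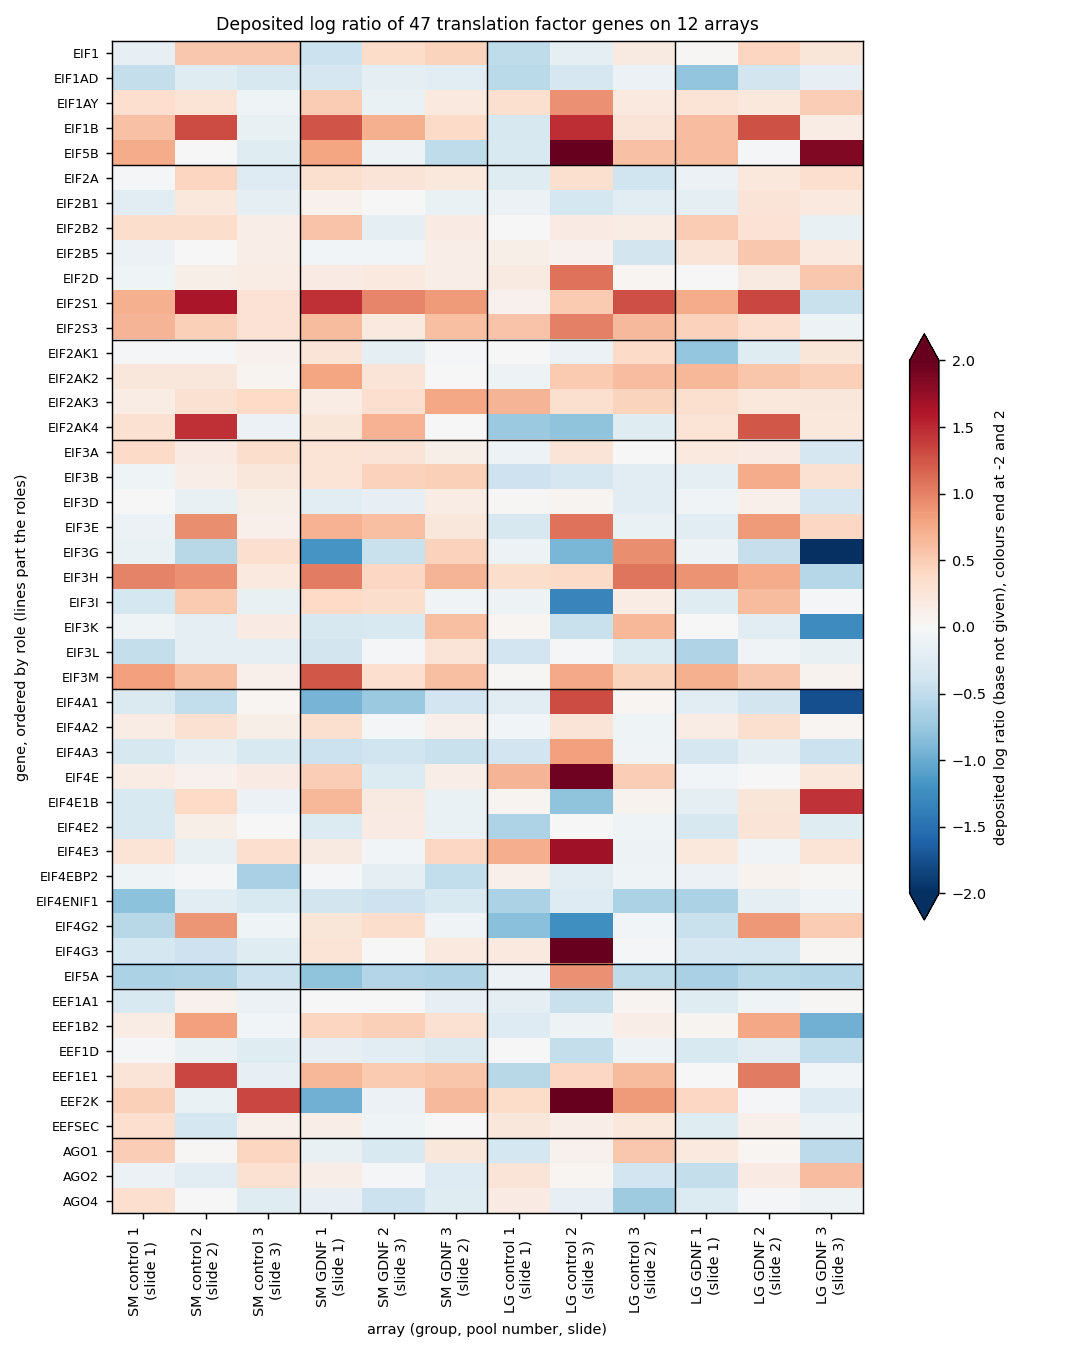
Deposited log ratio (colour, base not given) of the 47 translation factor genes (rows, by role) on the 12 arrays (columns, by group). LG control 2 holds the deepest red cells, EEF2K at 4.13 and EIF5B at 3.45, and LG GDNF 3 the deepest blue, EIF3G at -2.29.

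limma called none of the 47 factors in any of the 7 comparisons at an adjusted p under 0.05, and none of the 11914 genes (0%), in any of the 3 readings. Among these comparisons are GDNF against control in each class, LG against SM without and with GDNF, the interaction of GDNF and class, and GDNF and class each averaged over the other. The counts below use an unadjusted p under 0.05 and are read against the share of all genes that passed it. The standard error of a difference between groups had a median of 0.248 over the 47 factors.

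The widest set of differences among the factors was in LG oocytes, between GDNF and control. As deposited, 10 of 47 factors passed an unadjusted p under 0.05, against 7.58% of all genes. On slides 2 and 3 alone 9 passed (background 5.14%), and with slides 2 and 3 turned 4 passed (background 4.79%). Without LG control 2 and LG GDNF 3 the count as deposited was 6, against 7.85% of all genes. EIF3B, EIF2AK4, EIF4G2 and EIF1 lay on one side as deposited, and EIF4E, EIF5A, EIF2S3, EIF4G3, EIF4A1 and EEF2K on the other. The median difference over the 47 factors was -0.04 and that over all genes -0.02, GDNF minus control as deposited.

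EIF2AK4, also known as GCN2, is the eIF2 kinase that senses uncharged tRNA. Its log ratio was -0.75, -0.81 and -0.24 on the LG control arrays and 0.28, 1.24 and 0.21 on the LG GDNF arrays. The LG groups did not overlap, and the difference was 1.02 on slide 1, 1.49 on slide 2 and 1.02 on slide 3. Its size was 1.18 (SE 0.34, adjusted p = 0.646) over 12 arrays, 1.25 (SE 0.52) on slides 2 and 3 alone, and 0.49 (SE 0.53) with those slides turned. Without the pair that stood apart it was 1.25 (SE 0.45). In SM oocytes the arrays read 0.30, 1.46 and -0.12 in control and 0.24, 0.70 and 0.00 with GDNF, which overlap.

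EIF3B is a scaffold subunit of eIF3. Its log ratio was -0.42, -0.34 and -0.21 on the LG control arrays and -0.19, 0.75 and 0.31 on the LG GDNF arrays. The groups did not overlap, but LG GDNF 1 lay only just outside the control arrays. The size was 0.61 (SE 0.17, adjusted p = 0.646) over 12 arrays, 0.80 (SE 0.21) on slides 2 and 3 alone, and 0.46 (SE 0.27) with those slides turned. EIF3B was also the factor with the smallest p in SM oocytes, at -0.08, 0.13 and 0.23 in control and 0.28, 0.46 and 0.47 with GDNF. Those groups did not overlap either, and the size was 0.31 (SE 0.17, adjusted p = 1), with 0.29 (SE 0.21) on slides 2 and 3 alone and 0.07 (SE 0.27) turned. Averaged over both classes, EIF3B ranked 12 of 11914 genes, with a size of 0.46 (SE 0.12, adjusted p = 0.882) and the same side on every slide of both classes. With slides 2 and 3 turned that size was 0.27 (SE 0.19), so the ranking belongs to the deposited reading.

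EIF4G2, a relative of the cap complex scaffold that does not bind eIF4E, read -0.83, -1.23 and -0.06 on the LG control arrays and -0.44, 0.87 and 0.51 on the LG GDNF arrays. These groups overlap. The size was 1.02 (SE 0.35) over 12 arrays, 1.34 (SE 0.40) on slides 2 and 3 alone, and 0.76 (SE 0.42) with them turned, and 0.66 (SE 0.39) without the pair. EIF1, which guards the choice of the start codon, read -0.51, -0.20 and 0.17 in LG control and 0.02, 0.43 and 0.24 in LG GDNF. Its size was 0.41 (SE 0.15) as deposited, 0.35 (SE 0.19) on slides 2 and 3 alone and 0.05 (SE 0.20) with slides 2 and 3 turned.

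Several factors on the other side had 1 or both of the arrays that stood apart far from the rest. EIF4E, the cap-binding protein, read 0.68, 1.95 and 0.49 on the LG control arrays and -0.06, 0.00 and 0.21 on the LG GDNF arrays. The groups did not overlap, and LG control 2 was the highest of all 12. The size was 0.99 (SE 0.33) over 12 arrays and 0.50 (SE 0.22) without LG control 2. On slides 2 and 3 alone it was 1.12 (SE 0.43), and with them turned 0.50 (SE 0.43).

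EIF5A, the only protein known to carry hypusine, which eases the ribosome past difficult peptide bonds, lay between -0.81 and -0.12 on 11 arrays and at 0.92 on LG control 2. Its 2 features gave nearly the same reading there, 0.94 and 0.90. The LG difference was 0.68 (SE 0.26) with that array and 0.31 (SE 0.18) without it. EEF2K, the kinase that switches off elongation factor eEF2, read 0.37, 4.13 and 0.85 in LG control and 0.42, -0.04 and -0.27 in LG GDNF. The size was 1.74 (SE 0.76) and fell to 0.41 (SE 0.52) without LG control 2 and LG GDNF 3. On slides 2 and 3 alone EIF5A gave 0.76 (SE 0.38) and EEF2K 2.64 (SE 0.93), and turned they gave 0.34 (SE 0.36) and 1.78 (SE 0.84).

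EIF4A1, the main helicase of the cap complex, was at opposite ends of its range on the pair, 1.30 on LG control 2 and -1.76 on LG GDNF 3, and between -0.94 and 0.04 elsewhere. Its size was 1.16 (SE 0.48) with the pair and 0.20 (SE 0.25) without it. On slides 2 and 3 alone it was 1.74 (SE 0.60), and turned 1.16 (SE 0.52). EIF2S3, the gamma subunit of eIF2, gave 0.51 (SE 0.20) with the pair and 0.21 (SE 0.17) without, 0.71 (SE 0.25) on slides 2 and 3 alone and 0.43 (SE 0.21) turned. EIF4G3, a second scaffold of the cap complex, gave 0.95 (SE 0.38) with the pair and 0.43 (SE 0.18) without, 1.16 (SE 0.52) on slides 2 and 3 alone and 0.60 (SE 0.48) turned.

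**Figure D3:**
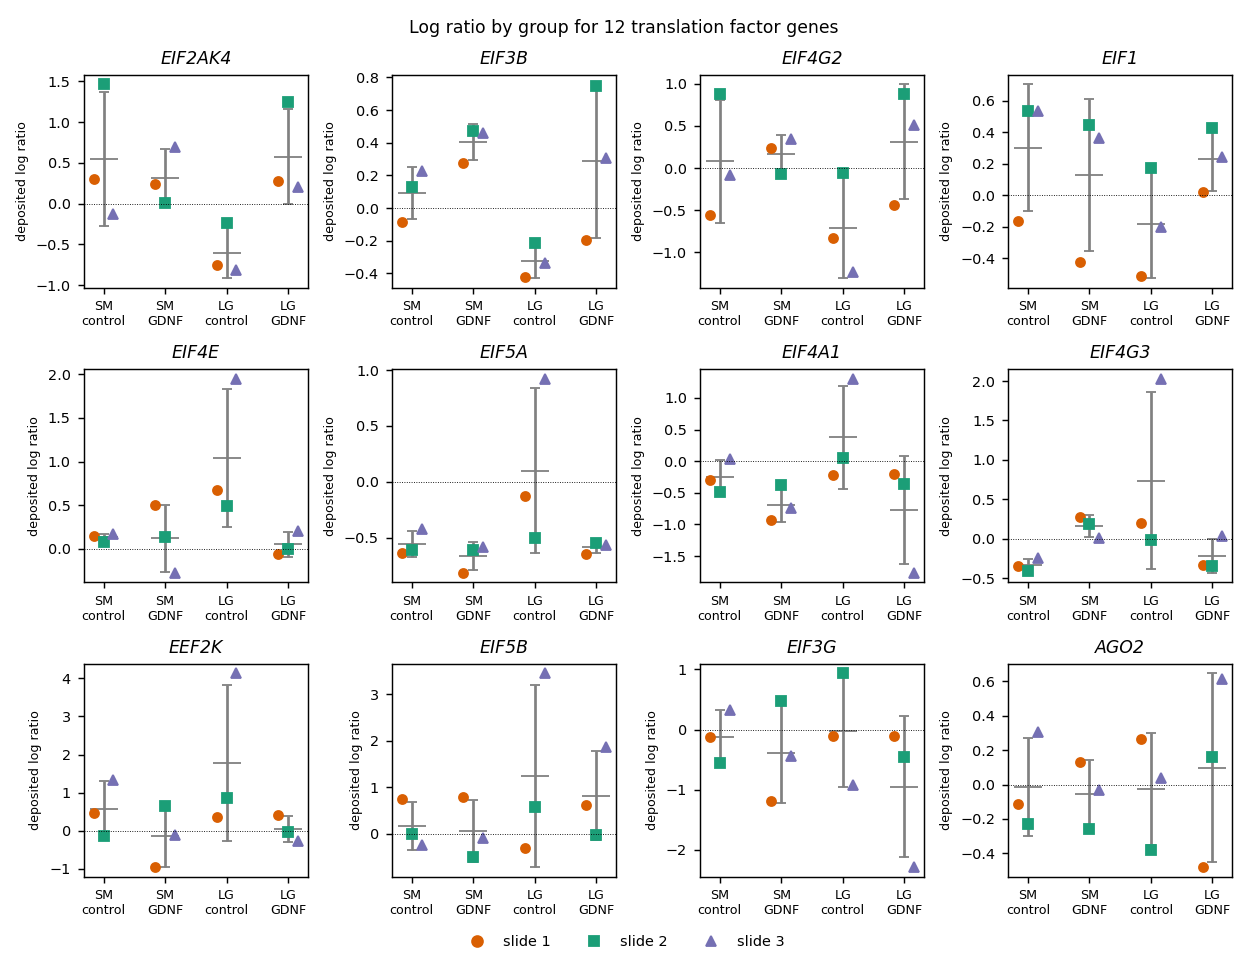
Deposited log ratio of 12 factors by group; each point is 1 array, its shape and colour give the slide, and the grey bar is the group mean with its SD (n = 3). LG control 2, the slide 3 point of the LG control group, stands far from the rest for EEF2K, EIF5B, EIF4G3, EIF4E and EIF5A, while the LG groups of EIF2AK4 do not overlap.

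With slides 2 and 3 turned, other factors had the smallest p in LG oocytes. AGO2, the argonaute that cuts its target RNA, read 0.26, 0.04 and -0.38 in LG control and -0.48, 0.16 and 0.61 in LG GDNF as deposited. The difference lay on one side on slide 1 and on the opposite side on slides 2 and 3. As deposited its size was 0.12 (SE 0.25), and turned it was 0.62 (SE 0.13, adjusted p = 0.979), rank 4 of 11914 genes in that reading. It was 0.56 (SE 0.18) on slides 2 and 3 alone, and 0.64 (SE 0.18) turned and without the pair. EIF3H, EIF2B1 and EIF4E1B also passed an unadjusted p under 0.05 in the turned reading, with sizes of 0.61, 0.37 and 0.89. Without the pair those turned sizes were 0.43 (SE 0.20), 0.28 (SE 0.21) and 0.22 (SE 0.29). EIF4E1B, the cap-binding homologue expressed mainly in oocytes, read 0.05, -0.81 and 0.06 in LG control and -0.20, 0.25 and 1.44 in LG GDNF, so that its largest values in either direction were on the pair that stood apart.

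**Figure D4:**
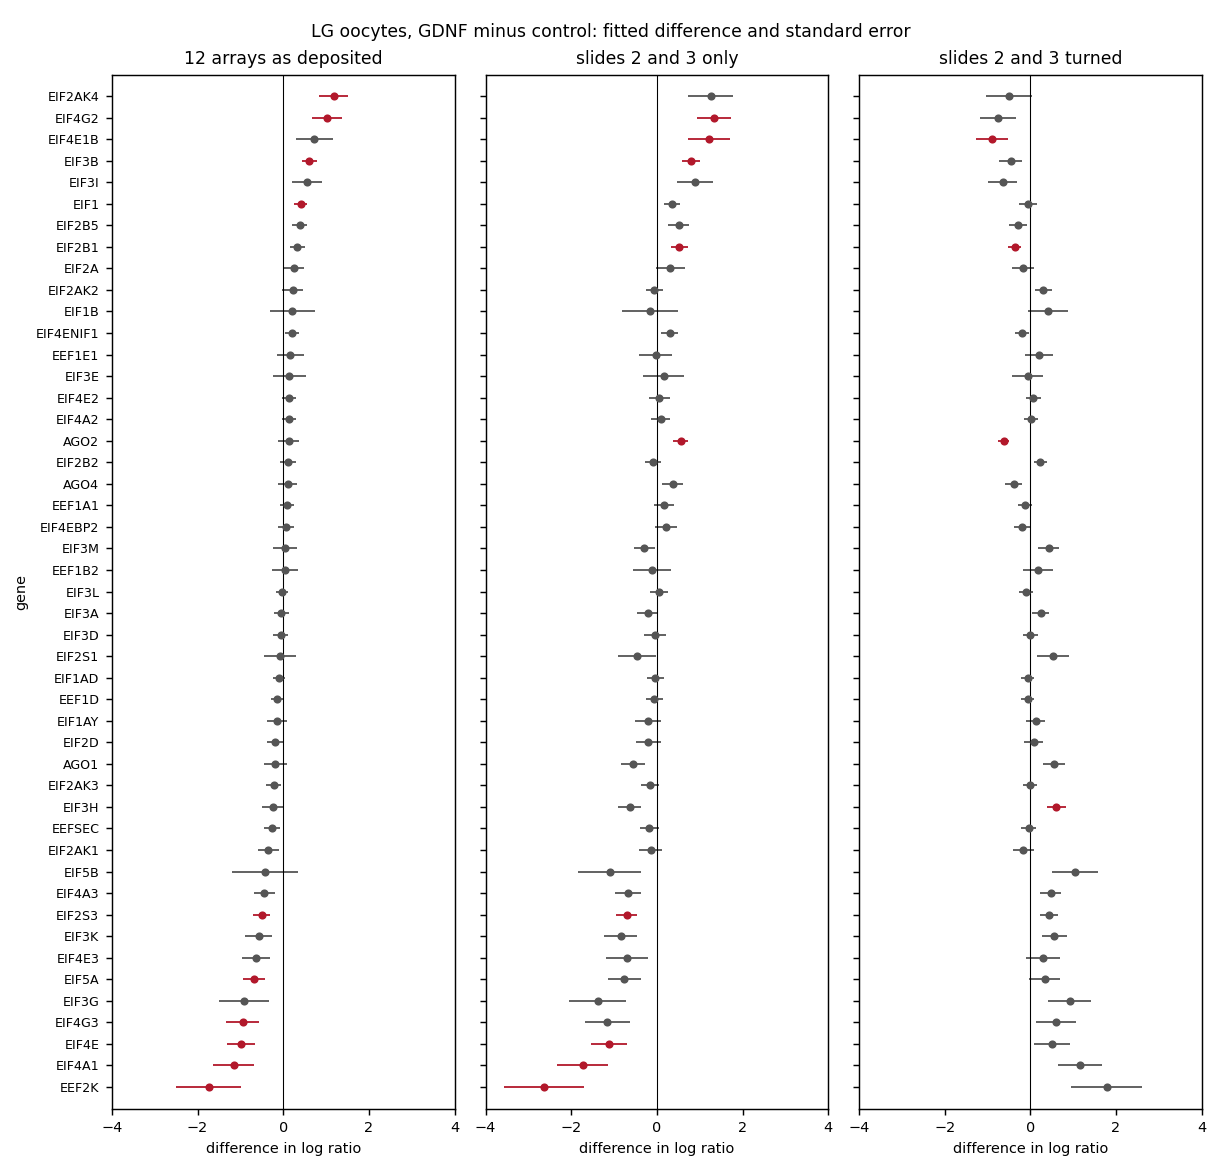
Difference between GDNF and control in LG oocytes (dot) and its standard error (bar) for each of the 47 factors, in 3 readings of the deposited log ratios; red marks a limma p under 0.05 before adjustment. Turning slides 2 and 3 moves 33 of the 47 dots to the opposite side of 0. The turned panel has 4 red dots (AGO2, EIF3H, EIF2B1 and EIF4E1B), none of which is among the 10 red as deposited.

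In SM oocytes no factor passed an unadjusted p under 0.05 between GDNF and control, in any reading. The background was 2.34% of all genes as deposited, 1.18% on slides 2 and 3 alone and 2.1% with them turned. After EIF3B, the smallest p belonged to EIF3L, AGO4, AGO1, EIF4G3 and EIF1, with sizes from 0.17 to 0.49 and an adjusted p of 1 in limma. Single arrays moved these values. EIF3L went from 0.23 to 0.12 without SM GDNF 3, AGO1 from 0.39 to 0.68 without SM control 2 and 0.22 without SM control 3, and EIF1 from 0.17 to 0.07 without SM GDNF 1 and 0.10 without SM control 3. EIF4G3 read -0.35, -0.41 and -0.25 in SM control and 0.28, 0.01 and 0.19 in SM GDNF, which do not overlap. Its size was 0.49 with an SE of 0.38 over 12 arrays, and 0.49 with an SE of 0.15 without LG control 2 and LG GDNF 3, which are not in that comparison but enter the spread that all groups share. It was 0.84 without SM GDNF 2, and 0.31 to 0.32 without SM GDNF 1, SM GDNF 3 or SM control 3. The size was 0.43 (SE 0.52) on slides 2 and 3 alone and 0.08 (SE 0.48) turned. Groups of SM arrays did not overlap for 3 of the 47 factors (EIF3B, EIF4A3 and EIF4G3), against 7.16% of all genes. In LG they did not overlap for 7 (EEFSEC, EIF2AK4, EIF2B5, EIF2S3, EIF3B, EIF4E and EIF5A), against 10.6%.

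The interaction compares the GDNF difference in LG with that in SM. As deposited 3 of 47 factors passed an unadjusted p under 0.05 (background 4.19%), on slides 2 and 3 alone 2 (3.44%), and turned 3 (4.39%). EIF2AK4 had an interaction of 1.41 (SE 0.49, adjusted p = 0.991), EIF1 of 0.58 (SE 0.21) and EIF4G3, on the opposite side, of 1.45 (SE 0.54). Without LG control 2, the value for EIF4G3 was 0.83 (SE 0.24). EIF4E, EIF4G2 and EIF2S3 followed at 0.98, 0.93 and 0.51 (SE 0.47, 0.49 and 0.28). Without LG control 2, EIF4E was at 0.49 and EIF2S3 at 0.24, and without SM GDNF 3, EIF4G2 was at 0.47 and EIF2AK4 at 0.93 (SE 0.34). In the turned reading AGO2 (0.82, SE 0.18), EIF2B1 (0.54) and EIF4E1B (1.30) took their place, and EIF2AK4 was at 0.69 (SE 0.75). Turned and without the pair, AGO2 was at 0.85, EIF2B1 at 0.45 and EIF4E1B at 0.62.

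LG and SM oocytes matured without GDNF differed in 7 of 47 factors at an unadjusted p under 0.05 (background 7.1%), in 5 on slides 2 and 3 alone (4.48%) and in 1 turned (3.86%). This comparison uses the same LG control arrays as the LG comparison of GDNF and control, so the values below are not a second observation. EIF2AK4 differed by 1.15 (SE 0.34, adjusted p = 0.674), with the LG control arrays all below the SM control arrays as deposited. EIF1 differed by 0.48 (SE 0.15) on the same side, as did EIF3B at 0.42 (SE 0.17) and EIF4G2 at 0.79 (SE 0.35). EIF2AK4, EIF1, EIF3B and EIF4G2 gave 1.20, 0.55, 0.45 and 1.04 on slides 2 and 3 alone. Turned they gave 0.45, 0.25, 0.19 and 0.60. Without the pair, as deposited, EIF4G2 was at 0.52, and the others were at 1.11, 0.36 and 0.36.

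EIF4G3 at 1.07, EIF4E at 0.91 and EIF5A at 0.65 lay on the opposite side. Leaving out LG control 2 gave 0.46, 0.42 and 0.28 for those genes. Slides 2 and 3 alone gave 1.34, 1.10 and 0.72, and turned the sizes were 0.71, 0.55 and 0.31. Groups did not overlap for 4 of 47 factors, EIF2AK4, EIF3B, EIF4E and EIF4G3 (background 9.38%). In the turned reading the factor with a p under 0.05 was EIF5B, the GTPase that joins the ribosomal subunits. EIF5B read 0.75, 0.00 and -0.24 in SM control and -0.31, 3.45 and 0.58 in LG control as deposited. Its size was 1.78 (SE 0.53, adjusted p = 0.999) turned, 1.07 (SE 0.76) as deposited and 2.14 (SE 0.73) on slides 2 and 3 alone. Without the pair it was 0.18 (SE 0.42) as deposited, on the opposite side, and 0.89 (SE 0.20) turned.

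With GDNF in the medium, no factor differed between LG and SM at an unadjusted p under 0.05 as deposited (background 2.41%), 1 did on slides 2 and 3 alone (1.79%), and 3 did turned (4.12%). Groups did not overlap for 1 of 47, EIF2B5 (background 6.55%). The factors with the smallest p as deposited were EIF2B5, the catalytic subunit of the eIF2 exchange factor, at 0.33, then EIF3L, EIF3K, EIF2S1, EEF1B2 and EIF1AD at 0.20 to 0.55, with an adjusted p of 1 in limma. These sizes moved with single arrays. EIF2S1 ran from 0.19 without LG GDNF 3 to 1.04 without SM GDNF 3, with 0.28 and 0.33 without SM GDNF 1 and SM GDNF 2. EIF3K ran from 0.20 without LG GDNF 3 to 0.80 without LG GDNF 1, with 0.30 without SM GDNF 3. EIF3L was at 0.11 without SM GDNF 3, EIF2B5 at 0.19 without LG GDNF 2, and EIF1AD at 0.09 without LG GDNF 1 and 0.32 without LG GDNF 3. EEF1B2, a nucleotide exchange factor for eEF1A, read 0.43, 0.48 and 0.31 in SM GDNF and 0.06, 0.77 and -0.96 in LG GDNF. Its size was 0.45 with LG GDNF 3 and 0.04 without it, 0.20 without SM GDNF 2, and 0.75 without SM GDNF 3 or LG GDNF 2. The other readings gave 0.49 (slides 2 and 3 alone) and 0.20 (turned). In the turned reading AGO2 (0.56, SE 0.13), EIF3G (1.28, SE 0.51) and EIF3K (0.70, SE 0.29) passed. EIF3G, an RNA-binding subunit of eIF3, read -1.18, -0.45 and 0.47 in SM GDNF and -0.11, -0.45 and -2.29 in LG GDNF, and without the pair its size was 0.20 (SE 0.47) as deposited. Turned and without the pair, AGO2 was at 0.55, EIF3G at 0.70 and EIF3K at 0.40.

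All 10 measured eIF3 subunits lay on one side in that comparison as deposited, with a median difference of -0.22, LG minus SM, against 0.00 for all genes. They are EIF3A, EIF3B, EIF3D, EIF3E, EIF3G, EIF3H, EIF3I, EIF3K, EIF3L and EIF3M. Of all 11914 genes, 5932 lay on that side. In the other role lists 5 of 6 elongation factors, 5 of 11 eIF4 genes and 3 of 7 eIF2 and exchange factor genes did. So did 2 of 4 eIF2 kinases, 2 of 5 scanning and start site genes and 1 of 3 argonautes, but not EIF5A. These counts are over genes, which are not independent. Of 50 ribosomal protein genes, 48 lay on the same side, with a median of -0.44. Without LG control 2 and LG GDNF 3, 8 of the 10 subunits lay on that side with a median of -0.081, and most ribosomal genes lay on the opposite side, with 33 of 50 above 0 and a median of 0.077. On slides 2 and 3 alone 7 of the 10 subunits lay on that side (median -0.19), and 47 of the 50 ribosomal genes (median -0.88). With slides 2 and 3 turned, 6 of the 10 subunits lay above 0 and the median was 0.10, while the ribosomal median was 0.68. The median of the eIF3 subunits on LG GDNF 3 was -0.24, and on the other 11 arrays it lay between -0.10 and 0.36. The part of LG GDNF 3 in this shift of the subunits was not tested beyond the values without the pair, among them EIF3K at 0.12 (SE 0.31) and EIF3G at 0.20.

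Averaged over classes, GDNF against control gave 4 of 47 factors at an unadjusted p under 0.05 as deposited (background 4.46%), 2 on slides 2 and 3 alone (1.64%) and 1 turned (1.87%). Beside EIF3B these were EIF4A1 (0.80, SE 0.34), EEF2K (1.22, SE 0.54) and EIF4G2 (0.56, SE 0.24). Without the pair EIF4A1 was at 0.32, EEF2K at 0.56 and EIF4G2 at 0.37, and only EIF3B (0.45, SE 0.15) of those 4 kept a p under 0.05. Averaged over GDNF, LG against SM gave no factor as deposited (background 3.99%), 2 on slides 2 and 3 alone (2.48%) and 2 turned (3.04%). The latter were EIF5B (1.32, SE 0.38) and EIF2AK2, the double-stranded RNA kinase of eIF2 known as PKR (0.35, SE 0.14). Without the pair they were at 0.57 and 0.36 turned. As deposited the smallest p belonged to EIF3B, EIF5A, EEF1B2 and EIF2AK4, at 0.27, 0.37, 0.41 and 0.44 (adjusted p = 0.937). EIF5A was at 0.18 without LG control 2 and EEF1B2 at 0.21 without LG GDNF 3. EIF2AK4 was at 0.27 without SM control 2, 0.24 without SM GDNF 2 and 0.68 without SM GDNF 3.

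By spread over the arrays, the most variable factors were EEF2K (SD 1.15), EIF5B (0.99), EIF3G (0.74), EIF4A1 (0.71) and EIF2AK4 (0.62). Leaving out LG control 2 and LG GDNF 3 brought EIF5B to 0.40 and EIF4A1 to 0.30, whereas EIF2AK4 stayed at 0.61 and became the most variable of the 47. EIF2AK4 was high in pool 2 of 3 groups, at 1.46 in SM control, 0.70 in SM GDNF and 1.24 in LG GDNF, and at -0.81 in LG control 2. EIF1B, a paralogue of EIF1, read 1.31, 0.71, 1.47 and 1.28 in pool 2 of SM control, SM GDNF, LG control and LG GDNF. In pool 1 of the same groups it read 0.59, 1.25, -0.32 and 0.62, and in pool 3 -0.15, 0.39, 0.26 and 0.15. Pool 2 was the highest of the 3 in each group but SM GDNF, where pool 1 was. The least variable were EEF1D (0.12), EIF1AD (0.12) and EIF3L (0.14).

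Several factors central to translation had a narrow range over the 12 arrays when their features were averaged. EEF1A1, which carries aminoacyl tRNA to the ribosome and has near-identical copies that its features may also detect, lay between -0.44 and 0.09. EIF4A2, the second helicase, lay between -0.08 and 0.33, and EIF3A, the largest eIF3 subunit, between -0.33 and 0.39. Single features ranged more widely. The features of EIF4A2 differed by a median of 0.97 across arrays and those of EIF3A by 0.43. For EIF4A2, 1 feature ran from -0.19 on LG control 1 to 1.38 on SM control 2. EIF2S1, the eIF2 subunit that the kinases phosphorylate, had a wider range, from -0.45 on LG GDNF 3 to 1.64 on SM control 2. EIF2AK3, the eIF2 kinase of the endoplasmic reticulum, lay above 0 on all 12 arrays, from 0.15 to 0.77. EIF4ENIF1, the eIF4E transporter that holds stored mRNA silent, lay below 0 on all 12, from -0.81 to -0.09. Since the dye changed between slides, a value on the same side of 0 on every array gives no level against the reference.

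The features of a gene did not always run together. EIF5A's 2 features differed by a median of 0.0634 across arrays and EIF3G's 3 features by 0.596. The 3 features of EIF4G3 differed by 4.99 on LG control 2, where they read 0.04, 5.03 and 1.02, so the gene's extreme value there came from 1 feature. The 7 features of EEF1D differed by a median of 1.44, and its small SD is that of their mean. Another 23 factors had 1 feature each, among them EIF2AK4, EIF3B, EEF2K, EIF4A1, EIF5B and AGO2. Their values could not be checked in this way.

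**Figure D5:**
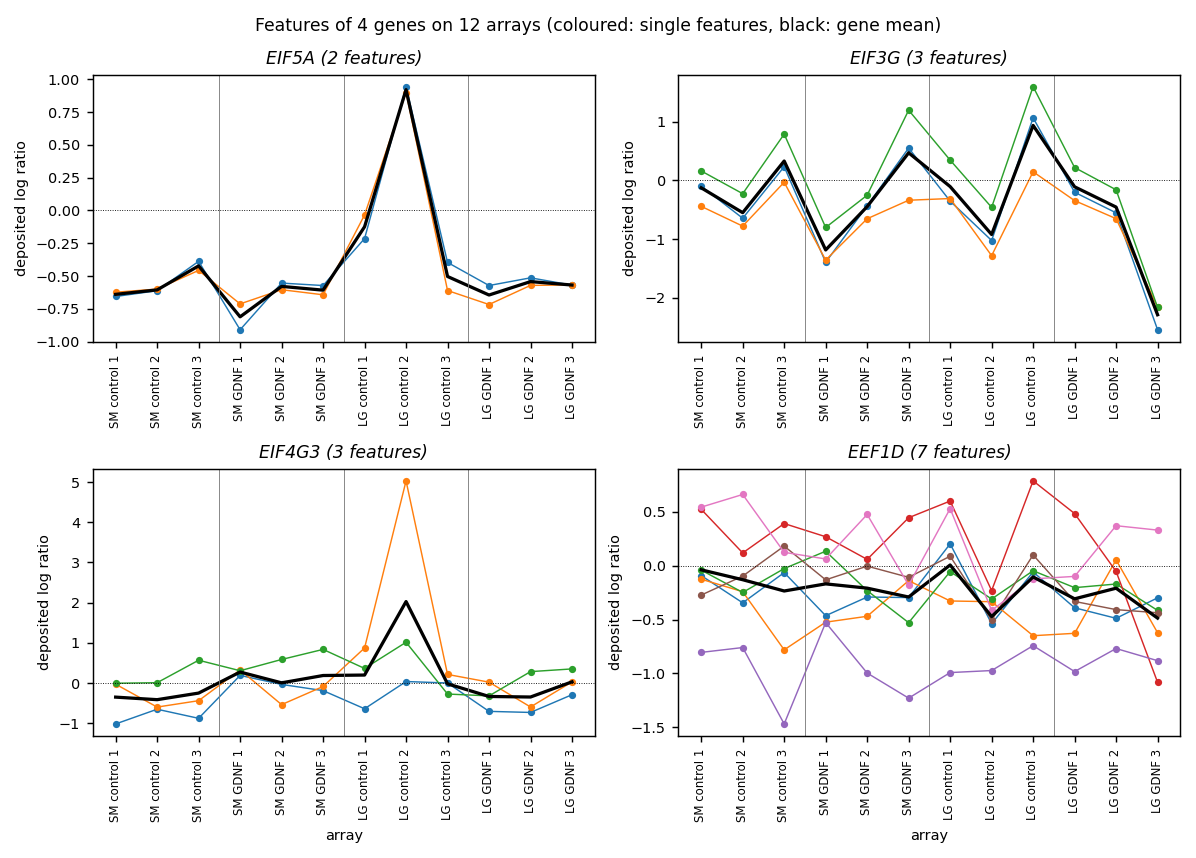
Deposited log ratio of each feature (coloured lines) and the gene mean (black) for EIF5A, EIF3G, EIF4G3 and EEF1D on the 12 arrays, each panel with its own axis. The 2 features of EIF5A overlie each other, whereas 1 of the 3 features of EIF4G3 reaches 5.03 on LG control 2 and the others 0.04 and 1.02.

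In the LG comparison of GDNF and control, 13 of the 24 factors with more than 1 feature had features on both sides of 0. EIF3K had the widest gap (1.13), then EIF3E (0.86) and EIF2D (0.83). In SM there were 15 such factors, led by EIF2B1 (0.52), EEF1B2 (0.46) and EEF1D (0.42). Between the classes without GDNF there were 15, led by EIF2D (1.06), EEF1B2 (0.79) and EIF3K (0.77), and with GDNF 12, led by EEF1D (0.56), EIF2B1 (0.49) and EIF1AD (0.47). EIF1AY is a Y-linked gene with a near-identical X-linked copy, and the oocytes came from gilts, which are female. Its features therefore cannot be taken to read the Y-linked gene, and which transcript they detect was not tested.

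Other genes of translation were taken from lists chosen by function. Among 6 genes of termination and recycling, 15 of signalling to initiation factors (among them MTOR and ATF4), 5 mitochondrial factors and 6 of the hypusine and diphthamide pathways, none of the 32 passed an unadjusted p under 0.05 in any of the 7 comparisons as deposited. In the other readings some did, and in LG between GDNF and control 3 signalling genes and 1 mitochondrial factor passed on slides 2 and 3 alone (4 of 32, background 5.14%). Turned, 2 signalling genes and 1 gene of each of the other 3 lists passed (5 of 32, background 4.79%). In the other 6 comparisons between 0 and 2 of the 32 passed on slides 2 and 3 alone (background 1.18% to 4.48%), and between 1 and 4 turned (background 1.87% to 4.39%). Among 10 poly(A)-binding proteins and their partners, 1 passed in each of 4 comparisons as deposited. The backgrounds were 7.58% (GDNF in LG), 7.1% (class without GDNF), 4.46% (GDNF averaged) and 3.99% (class averaged), so 1 of 10 is near those shares. PABPC1L, the poly(A)-binding protein of oocytes and early embryos, differed by 0.79 between GDNF and control in LG (SE 0.18, adjusted p = 0.646), on the same side as EIF2AK4. That size was 0.97 (SE 0.21) on slides 2 and 3 alone, 0.51 (SE 0.31) turned and 0.67 (SE 0.24) without the pair. It differed by 0.52 between LG and SM without GDNF (SE 0.18), by 0.60 on slides 2 and 3 alone and by 0.28 turned, a comparison that shares the LG control arrays. PDCD4, an inhibitor of the eIF4A helicase, passed in LG against SM averaged over GDNF at a size of 0.60 (SE 0.26), with 0.68 (SE 0.35) on slides 2 and 3 alone, 0.31 (SE 0.29) turned and 0.23 (SE 0.18) without the pair.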

How the data were processed

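RNA from pooled oocytes was extracted with PicoPure, amplified with RiboAmp HS by oligo(dT) priming and in vitro transcription, and labelled with ULS dyes, per the labels' protocols. The authors deposited 1 log ratio per feature and array, handled here as log2 values as deposited, and neither base, numerator nor normalization is stated in any source used. Every array has a median absolute ratio of 0.267, so arrays had been scaled alike before deposit. An array's spread could not be set against scanner intensities, which were not used here.

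Symbols came from the platform annotation and were updated through accessions and synonyms of the RefSeq gene table. Features were averaged per gene. Differences were fitted with limma 3.58.1 in R 4.3.3 (group and slide, all 12 arrays, 6 residual degrees of freedom) on all 11914 genes with Benjamini-Hochberg adjustment, tested on simulated data. Alternatives covered the reading of the dyes, the slide term, features, normalization, moderation, weights and each array left out. Genes are named by smallest p (6 a comparison, 4 in the averaged ones), by role, by spread and by disagreement of features, and AGO2, EIF5B, EIF2AK2, EIF3G and others of the turned reading were added after their values were seen. Members, lists and tests were chosen with earlier results of these data known. No sequences are printed because none came with the reference tables.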

Additional observations from a re-analysis of the deposited data

How the results depend on the processing

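No factor was called at an adjusted p under 0.05 in any of the 7 comparisons under any alternative or with any 1 array left out (0 throughout), so only unadjusted counts, medians and sizes could move. With each array left out in turn, the count of factors at an unadjusted p under 0.05 ran from 3 to 13 for GDNF in LG, 0 to 1 for GDNF in SM, 2 to 10 for LG against SM without GDNF, 0 to 2 with GDNF, 2 to 6 for the interaction, 1 to 8 for GDNF averaged and 0 to 6 for class averaged. The shares of all genes ran from 4.0% to 9.15%, 1.75% to 5.78%, 5.18% to 8.59%, 2.03% to 5.49%, 2.73% to 6.61%, 2.46% to 11% and 2.25% to 9.8% in the same order. The medians over the factors ran from -0.11 to 0.10 (GDNF in LG), -0.06 to 0.09 (GDNF in SM), -0.06 to 0.03 (class without GDNF), -0.13 to 0.01 (class with GDNF), -0.20 to 0.080 (interaction), -0.03 to 0.08 (GDNF averaged) and -0.08 to 0.00 (class averaged). The fewest factors in the LG comparison, 3, were left without LG control 2 (7.88% of all genes).

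Without LG control 2 and LG GDNF 3, an alternative chosen after seeing the data, the counts were 6 (GDNF in LG, against 7.85% of all genes), 1 (GDNF in SM, 2.54%), 2 (class without GDNF, 5.65%), 2 (class with GDNF, 2.61%), 1 (GDNF averaged, 5.39%) and 1 (class averaged, 2.54%), and the medians 0.11 (GDNF in LG) and 0.14 (interaction). Leaving out that pair with slides 2 and 3 turned gave counts of 2, 2, 1, 1, 1 and 1 for GDNF in LG, class without GDNF, class with GDNF, the interaction, GDNF averaged and class averaged (3.02%, 2.63%, 2.32%, 3.67%, 1.54% and 1.93% of all genes), and medians of -0.10 (GDNF in LG), -0.11 (class with GDNF), -0.11 (interaction) and -0.088 (class averaged). With slides 2 and 3 turned the counts were 4 (GDNF in LG, 4.79%), 1 (class without GDNF, 3.86%), 3 (class with GDNF, 4.12%), 1 (GDNF averaged, 1.87%) and 2 (class averaged, 3.04%), and the medians -0.061 (class without GDNF), -0.11 (class with GDNF), 0.092 (GDNF averaged) and -0.070 (class averaged). Slides 2 and 3 alone gave 1 (class with GDNF, 1.79%), 2 (GDNF averaged, 1.64%) and 2 (class averaged, 2.48%).

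No slide term gave 4 (class without GDNF, 5.45%) and 2 (GDNF averaged, 3.66%), as did slide as a random block (4 and 2, against 6.0% and 3.99%). Single features gave 1 (GDNF in SM), 13 (class without GDNF), 1 (class with GDNF) and 3 (class averaged) of 89, against 2.23%, 7.42%, 2.31% and 4.17% of all features of named genes. Quantile normalization gave 1 (GDNF in SM, 2.83%) and 1 (class averaged, 4.45%). Array weights gave 1 (class with GDNF, 3.36%), 5 (interaction, 7.5%) and 2 (class averaged, 6.52%) and a median of 0.088 (GDNF in LG). With the pool number as a replicate block in place of slide, 8 factors passed for GDNF in LG (8.02%) and 2 for GDNF averaged (5.41%). Deviations of arrays with 1 number from their group means correlated from -0.45 to 0.588, over 0.1 in 9 of 18 pairs, so the numbers were not taken as pairs, and not every array correlated best with its own number. Deviations of arrays on 1 slide correlated from -0.417 to 0.588, also over 0.1 in 9 of 18 pairs. This check therefore does not set slide above pool number as the block.

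With all 3 slides present, a gene keeps its side when turned if its difference on slide 1 outweighs those on slides 2 and 3 together. A gene whose difference is of similar size on all 3 slides should change sides. In SM, AGO4 (-0.016), AGO1 (-0.035) and EIF1 (-0.00063) did not, nor did EIF1AD with GDNF (-0.10) or EIF3B for class averaged (-0.0035); the median of features also put EIF1AD at 0.068. Turned and without the pair, the differences that did not change sides were AGO4 (-0.016), AGO1 (-0.035) and EIF1 (-0.00063) for GDNF in SM, EIF4E (-0.12), EIF1 (0.14) and EIF5A (-0.24) for GDNF in LG, EIF4G3 (0.033), EIF4E (0.11), EIF5A (0.25) and EIF3B (-0.038) for class without GDNF, EIF2S1 (-0.36), EEF1B2 (-0.26) and EIF1AD (-0.11) for class with GDNF, EIF1 (0.14), EIF4G3 (-0.025) and EIF4E (-0.37) for the interaction, EIF4G2 (0.084) for GDNF averaged, and EIF3B (-0.19), EIF5A (0.13), EEF1B2 (-0.13) and EIF2AK4 (-0.14) for class averaged. With the pair left out, each LG group lies on slides 1 and 2 only. A difference between LG groups that is steady over those slides then largely cancels when slide 2 is turned. EIF4E for GDNF in LG, for example, was at -0.73 on slide 1 and -0.49 on slide 2 as deposited. A change of sides is therefore not to be expected for comparisons with LG arrays without the pair, and the sides listed for them say little. In the cases that kept a side with all 3 slides present, the difference on slide 1 outweighed those on slides 2 and 3 together. AGO4 for GDNF in SM, for example, was at -0.50 on slide 1, -0.26 on slide 2 and -0.19 on slide 3 as deposited. Its difference thus lay on the same side on every slide. Why slide 1 differed more in the genes that kept a side was not tested. With 3 arrays a group, the number of arrays limits the precision.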
